A study of Homo sapiens with 7 samples.

Results

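Long internal introns are taken here as introns of at least 5000 bp that are not the first of their transcript. The deposited splice table lists 6709 introns of 2979 genes, of which 6537 had values in all 6 CFAP20-KO and WT libraries. Among these, 290 introns of 241 genes met the length and position limits, which is 4.44% of 6537. Another 3 introns of this length lacked a value in at least 1 library and were left out. The groups were CFAP20-KO (3 libraries), CFAP20-KO rescued with CFAP20-GFP (1 library) and WT (3 libraries). All were RPE1 cells, an immortalised human retinal pigment epithelial line, in the background named iCas9 p53/puro-dKO. Nascent RNA was labelled with 2 mM bromouridine (BrU) for 30 min, captured with an antibody and sequenced (BrU-seq). Whether a group is 1 clone, and whether its replicates were grown separately, is not in the labels. The p-values below therefore cover the spread among these libraries alone, and that spread may be technical.

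Introns are removed from nascent RNA by the spliceosome, which recognises a 5′ splice site, a branch point and a pyrimidine-rich stretch before the 3′ splice site. In a long intron the 3′ splice site is transcribed well after the 5′ splice site, so that a short labelling pulse holds RNA in which the intron is still incomplete. CFAP20 is best known as a protein of cilia and flagella, and the study concerned its part in transcription and replication in the nucleus.

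The splice index is the authors' value per intron and library, a fraction from 0 to 1. The sources used here give neither its formula nor the reads behind each value, so the depth per intron is unknown and no counting interval can be given. Column names carry a number with 3 values, and libraries with the same number are called libraries of 1 run, although its meaning is not given. CFAP20-KO replicate 1 and WT replicate 1 shared a run, CFAP20-KO replicates 2 and 3 shared one with WT replicate 3, and the rescue shared one with WT replicate 2. The depth of the libraries is not given in the files, and the smallest step of the deposited nascent signal was 0.393 in CFAP20-KO replicate 1, 0.16 and 0.18 in CFAP20-KO replicates 2 and 3, and 0.0733 to 0.3 in the WT libraries. CFAP20 has no intron among the 6537, and these values hold no check of the knockout. None of the 28 marker genes looked up for retinal pigment epithelium, other epithelium, neurons, blood cells and mesenchyme has a long internal intron here, and in the whole table only OTX2, KRT8, KRT18, TUBB3, VIM and FN1 of them have any intron, so the cell type was not checked here.

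The 290 introns were 5000 to 68434 bp long, with a median of 7460 bp. Of these, 198 were under 10 kb, 64 were of 10 to 20 kb and 28 were longer. The second intron of the transcript made up 114 of them, 127 were the third to the fifth, and 49 came later. Coordinates of 284 introns equalled those of a GENCODE 44 intron of the same transcript (hg38). The annotation placed 239 within the coding region, 24 in the 5′ UTR, 6 in the 3′ UTR and 15 in non-coding transcripts. No 2 of the introns shared bases, but 36 genes held more than 1 of them. Another gene on the same strand overlapped 21 of the introns and a gene on the opposite strand overlapped 34.

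The splice sites are shown for 2 introns with a lower index in CFAP20-KO cells and then for 4 with a higher one. They are a part of the 16 introns named below for their change, and no fit called the 4 with a higher index. As a part only, they do not compare introns of lower and higher index in general. Each line gives the last 3 exon bases and the first 6 intron bases, and after a slash the last 20 intron bases and the first 3 exon bases, 5′ to 3′ on the transcribed strand of hg38. Capitals mark the GT and AG at the intron ends.
ATL3 intron 3 (chr11:63652576-63658760, minus strand): aagGTaagg / tgtattttccttttttttAGgtt
RUNX1 intron 4 (chr21:34859579-34880556, minus strand): gagGTacgt / tctctatcgtgtccccacAGgga
UBAP2L intron 4 (chr1:154228726-154234590, plus strand): acgGTagag / aatgctctacccttctatAGcat
PRPF6 intron 11 (chr20:64011504-64016722, plus strand): cagGTgggc / gttttgtgttcctctttcAGgat
NUDC intron 2 (chr1:26924167-26941456, plus strand): aagGTaagt / ggcctttcttccctctccAGctt
HNRNPD intron 2 (chr4:82359640-82371527, minus strand): atgGTaaaa / actgctttttgtctttacAGgaa

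All 290 long internal introns ended in AG, and 99.0% began with GT, the other 3 with GC. The 9 bases around the 5′ site were compared with the letters CAGGTAAGT, read on the transcribed strand only. Of the 290 introns, 5 (1.72%) held all of them, against 46 of all 6537 (0.704%). Mean matches were 6.55 ± 0.93 (SD over introns) in the long internal introns and 6.30 ± 0.97 in all introns. Among the introns shown, the 5′ sites of ATL3 and RUNX1 matched at 7 positions, while those with a higher index ranged from 4 matches in UBAP2L to 8 in NUDC. The pyrimidine share of the first 17 of the last 20 intron bases averaged 77.9% in the long internal introns and 76.3% in all introns. The match counts of the 2 introns with lower index lay within the range of the 4 with higher index.

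Across the long internal introns, the median splice index was 0.593, 0.765 and 0.749 in CFAP20-KO replicates 1 to 3, 0.765 in the rescue, and 0.704, 0.726 and 0.775 in WT replicates 1 to 3. The groups overlapped, with a mean of medians of 0.702 ± 0.095 in CFAP20-KO and 0.735 ± 0.036 in WT (SD, n = 3 each). The difference of −0.033 was smaller than the spread between libraries, and it was 0.022 without CFAP20-KO replicate 1, the library with the lowest median. No test was made of this median. Over all 6537 introns the same difference was 0.0082. Taken per intron as CFAP20-KO mean minus WT mean, the median was −0.033 in long internal introns and 0 over all introns. Without CFAP20-KO replicate 1 these medians were 0.011 and 0.027, so long internal introns stayed below all introns.

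Within a run, long internal introns stood lower in CFAP20-KO than shorter ones did. The median difference per long internal intron was −0.075 for CFAP20-KO replicate 1 minus WT replicate 1, −0.011 for CFAP20-KO replicate 2 minus WT replicate 3 and −0.035 for CFAP20-KO replicate 3 minus WT replicate 3. The last 2 of these share WT replicate 3. In internal introns under 1 kb (n = 3009) the same differences were 0.0069, 0.038 and 0.027, and in those of 1 to 5 kb (n = 1597) they were −0.031, 0.0083 and 0. The share of long internal introns below 0 was 69.7%, 55.5% and 62.1% in the 3 differences, against a background over all introns of 52%, 35.3% and 38.3%. All 3 differences were below 0 for 106 long internal introns (36.6%), against 18.3% of all introns, and above 0 for 37 (12.8%), against 27.1%. For the rescue minus WT replicate 2 the median difference was 0.022, with 37.2% of the long internal introns below 0, near the 0.015 and 38.7% over all introns.

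**Figure D1:**
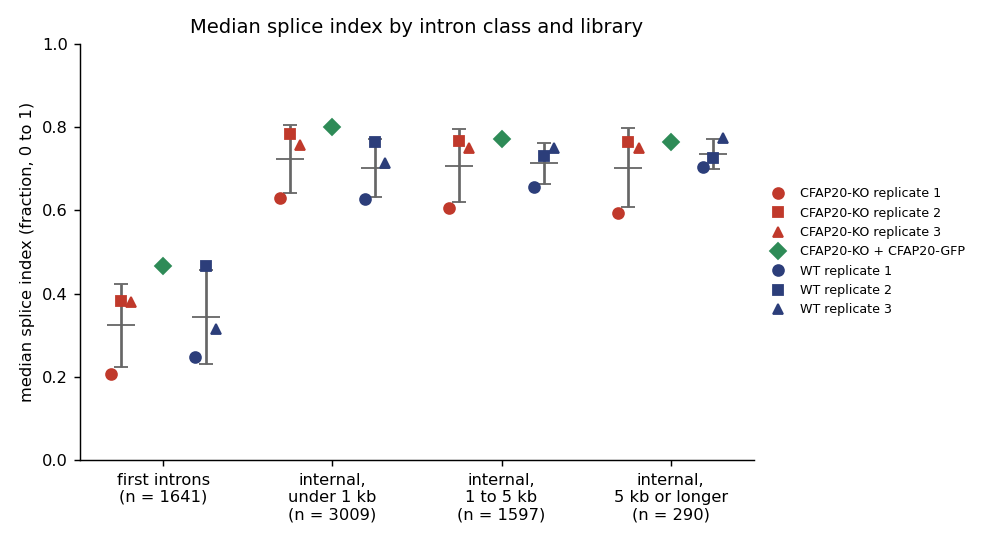
Median splice index (vertical axis, fraction) of each library in first introns and in internal introns of 3 length classes, with CFAP20-KO libraries left, the rescue in the middle and WT libraries right; grey bars give mean and SD of the 3 medians. In introns of 5 kb or longer CFAP20-KO replicate 1 lies lowest at 0.593 and WT replicate 3 highest at 0.775, and the groups overlap in all 4 classes.

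**Figure D2:**
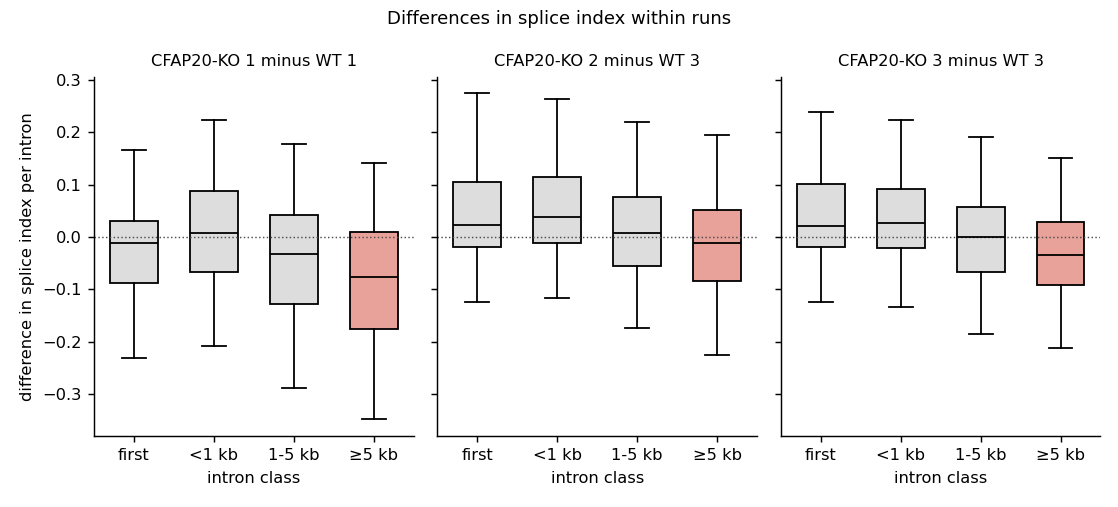
Difference in splice index per intron within runs (vertical axis) for 4 intron classes, as boxes of quartiles with whiskers at the 5th and 95th percentiles; long internal introns are in red. Their median lies below 0 in all 3 panels, at −0.075, −0.011 and −0.035, while that of internal introns under 1 kb lies above 0.

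Long internal introns were also set beside internal introns under 1 kb of the same library. The median of the long introns minus that of the short ones was −0.037, −0.018 and −0.0082 in CFAP20-KO replicates 1 to 3, −0.035 in the rescue, and 0.078, −0.038 and 0.061 in WT replicates 1 to 3. WT replicate 2 and the rescue, which share a run, were both on the CFAP20-KO side. WT replicates 1 and 3 lay apart from all other libraries, so the group values of −0.021 ± 0.015 in CFAP20-KO and 0.033 ± 0.062 in WT overlapped. In 154 genes with both kinds, long internal introns were also compared with the other internal introns of their own gene. The median difference in index was −0.064, −0.016 and −0.027 in CFAP20-KO replicates 1 to 3, −0.039 in the rescue, and −0.016, −0.046 and 0.0044 in WT replicates 1 to 3, again with overlap of the groups.

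Introns of at least 20 kb (n = 28) had the largest median change of the 4 length classes examined, −0.089, against −0.016 in those of 5 to 7.5 kb (n = 147), −0.046 in those of 7.5 to 10 kb (n = 51) and −0.029 in those of 10 to 20 kb (n = 64). These are medians over introns of the CFAP20-KO mean minus the WT mean, and at 10 to 20 kb the difference of the library medians had the other sign, 0.0098. For introns of at least 20 kb the median index was 0.606, 0.728 and 0.718 in CFAP20-KO replicates 1 to 3, 0.802 in the rescue, and 0.746, 0.761 and 0.789 in WT replicates 1 to 3. In this length class the CFAP20-KO medians lay below all WT medians. Of the 3 longest introns, CRIM1 intron 2 had separate groups and the other two did not. RARB intron 3, of 68434 bp in the gene of a retinoic acid receptor, had 0.725, 0.732 and 0.73 in CFAP20-KO, 0.693 in the rescue, and 0.769, 0.655 and 0.789 in WT, and was below 0 in all 3 differences within runs. BCL2L1 intron 2 (55568 bp, in an apoptosis regulator) had 0.307, 0.357 and 0.277 in CFAP20-KO and 0.248, 0.397 and 0.213 in WT, and the rescue stood apart at 0.601. CRIM1 intron 2 (44470 bp) had 0.821, 0.815 and 0.842 in CFAP20-KO and 0.872, 0.897 and 0.878 in WT, with every CFAP20-KO value below every WT value. Over the 290 introns, length and change in index correlated weakly, with a Spearman rho of −0.12. The introns share libraries, and 36 genes give more than 1 point, so this is a description.

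The level of the index was higher farther from the transcript start. With distance from the transcript start, the WT mean index had a Spearman rho of 0.44 over 284 introns, and with length a rho of 0.038 over 290. Introns within 6294 bp of the start (n = 95) had medians of 0.36, 0.564 and 0.589 in CFAP20-KO replicates 1 to 3 and of 0.449, 0.546 and 0.575 in WT replicates 1 to 3. Those from 34960 bp on (n = 94) had 0.72, 0.821 and 0.802 in CFAP20-KO and 0.808, 0.78 and 0.874 in WT. Introns of the coding region had a mean of medians of 0.739 ± 0.079 in CFAP20-KO and 0.764 ± 0.039 in WT, those of the 5′ UTR 0.412 ± 0.097 and 0.484 ± 0.025, and those of non-coding transcripts 0.209 ± 0.067 and 0.274 ± 0.080 (SD, n = 3 libraries each). Within the 24 introns of the 5′ UTR, 12 (50%) were below 0 in all 3 differences within runs and 0 were above. The shares were 36.6% and 12.8% of the 290 introns and 18.3% and 27.1% of all introns. The 24 include introns 2 to 4 of ZMIZ1, and CS intron 2, which was 0 in every library.

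At the ends of the range, TERT intron 6 had an index of 0.976, 0.974 and 1 in CFAP20-KO and of 0.978, 1 and 0.946 in WT. TERT encodes the catalytic subunit of telomerase, and RPE1 cells were immortalised with a TERT transgene. The part of transgene RNA in this index was not tested, so it may not measure removal of the intron. CTNNA1 intron 5, in the gene of alpha-catenin, had 1, 0.957 and 0.908 in CFAP20-KO and 1, 0.959 and 0.989 in WT. NOTCH2 intron 2, in a receptor of the Notch pathway, was among the 3 highest in WT. It had 0.889, 0.873 and 0.836 in CFAP20-KO, 0.915 in the rescue, and 0.983, 0.96 and 0.957 in WT, and its groups did not overlap. At the lower end, CLMAT3 intron 3 and CS intron 2 were listed at 0 in all 7 libraries, and LINC00513 intron 4 was at most 0.0073 in CFAP20-KO and 0.0050 in WT.

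The comparison of CFAP20-KO with WT was tested for each intron over the whole table with limma, with Benjamini-Hochberg adjustment over 6537 introns. No long internal intron (0 in either direction) reached an adjusted p under 0.05, with a background of 0% of all introns in either direction, and the smallest adjusted p was 0.833. At an unadjusted p under 0.05 there were 31 long internal introns, 10 higher and 21 lower in CFAP20-KO, while the background was 373 of all introns (5.71%). The replicate block sets CFAP20-KO replicate 2 beside WT replicate 2, a library of another run. Correlations did not tell numbers 2 and 3 apart, so fits with this block depend on that pairing. Blocking on the replicate number, with each library centred on its median, 4 long internal introns passed, all lower. They were ATL3 intron 3 (adjusted p 0.0107), TRAM2 intron 4 (0.0371), ABCC1 intron 5 (0.0388) and RUNX1 intron 4 (0.0393), with a background of 0.26% of all introns lower and 0.26% higher. With the run as a covariate and centred libraries 6 passed, all lower, where the background was 0.367% lower and 0.551% higher. These were ATL3 intron 3, RUNX1 intron 4, ABCC1 intron 5, ZDHHC5 intron 3, USP22 intron 2 and SEC14L2 intron 6. The groups overlapped in USP22 intron 2 and SEC14L2 intron 6. There WT replicate 2 (0.623 and 0.639) lay below the highest CFAP20-KO value (0.637 and 0.730). WT replicate 2 has no weight in that fit, because its run holds no CFAP20-KO library. With the block alone or the run alone, 0 passed.

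The 3 CFAP20-KO values lay entirely below the 3 WT values for 39 long internal introns (13.4%), against a background of 5.14% of all introns. They lay entirely above for 15 (5.17%), against 5.92%. With each library centred on its median the counts were 35 lower (12.1%) and 9 higher (3.10%), where all introns gave 6.84% and 6.13%. Without WT replicate 2 they were 62 lower (21.4%, against 7.45% of all introns) and 19 higher (6.55%, against 14.3%). Without CFAP20-KO replicate 1 they were 46 lower and 52 higher, so lower counts no longer exceeded higher ones. All introns gave 7.05% lower and 23.9% higher in that setting, against 15.9% and 17.9% of the long internal introns. The lower share thus stayed above that of all introns, and the higher share below it. CFAP20-KO replicate 1 had the largest signal step and the lowest median index, and the part of either in these counts was not tested.

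ATL3 intron 3 had the largest difference. ATL3 encodes atlastin 3, a GTPase that joins tubules of the endoplasmic reticulum. Its index was 0.349, 0.338 and 0.539 in CFAP20-KO, 0.84 in the rescue, and 0.833, 0.735 and 0.845 in WT. The CFAP20-KO libraries lay well below all WT libraries and the rescue among them. The change was −0.395 (SE 0.083, limma adjusted p 0.833), and it was −0.404 with the block and centring. A second long intron of the gene, intron 2 of the non-coding transcript ENST00000535789, was also lower without overlap, with a change of −0.150.

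TRAM2 intron 4 lies in the gene of a membrane protein linked to the translocation channel of the endoplasmic reticulum. It had 0.381, 0.228 and 0.253 in CFAP20-KO, 0.681 in the rescue, and 0.558, 0.686 and 0.632 in WT. ABCC1 intron 5, in the gene of a drug efflux transporter, had 0.286, 0.395 and 0.423 in CFAP20-KO, 0.647 in the rescue, and 0.622, 0.727 and 0.721 in WT. For both introns the groups were separate and the rescue lay within the WT range. RUNX1 intron 4, of 20978 bp in the gene of a transcription factor of blood development, had 0.321, 0.267 and 0.268 in CFAP20-KO, 0.505 in the rescue, and 0.691, 0.54 and 0.594 in WT. Here the rescue lay between the groups, nearer to WT replicate 2 of its run than to any CFAP20-KO library. The changes were −0.338 for TRAM2, −0.322 for ABCC1 and −0.322 for RUNX1 (SE 0.079, 0.077 and 0.074).

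Of the other 4 introns in this group, TNS3 intron 8 lies in the gene of tensin 3, an adapter at focal adhesions. It had 0.412, 0.45 and 0.585 in CFAP20-KO, 0.709 in the rescue, and 0.738, 0.703 and 0.78 in WT. NRIP1 intron 2, of 29028 bp in the 5′ UTR of a nuclear receptor corepressor gene, had 0.5, 0.521 and 0.69 in CFAP20-KO, 0.756 in the rescue, and 0.848, 0.743 and 0.793 in WT. In these introns the rescue again lay within the WT values. In SEPTIN9 intron 2, in a gene of septin filaments, the rescue did not, with 0.273, 0.543 and 0.543 in CFAP20-KO, 0.535 in the rescue, and 0.698, 0.807 and 0.649 in WT. ZDHHC5 intron 3, in a palmitoyltransferase gene, had 0.289, 0.36 and 0.509 in CFAP20-KO, 0.364 in the rescue, and 0.681, 0.543 and 0.725 in WT, so that the rescue lay among the CFAP20-KO libraries. Changes of these 4 were −0.258, −0.224, −0.265 and −0.263. None passed limma's test without covariates, and ZDHHC5 intron 3 passed with the run and centring (adjusted p 0.0431). Among all 39 introns with separate, lower CFAP20-KO values, the WT mean was the nearer of the group means to the rescue in 31 (79.5%), near the 81.5% over all introns with separate, lower values.

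**Figure D3:**
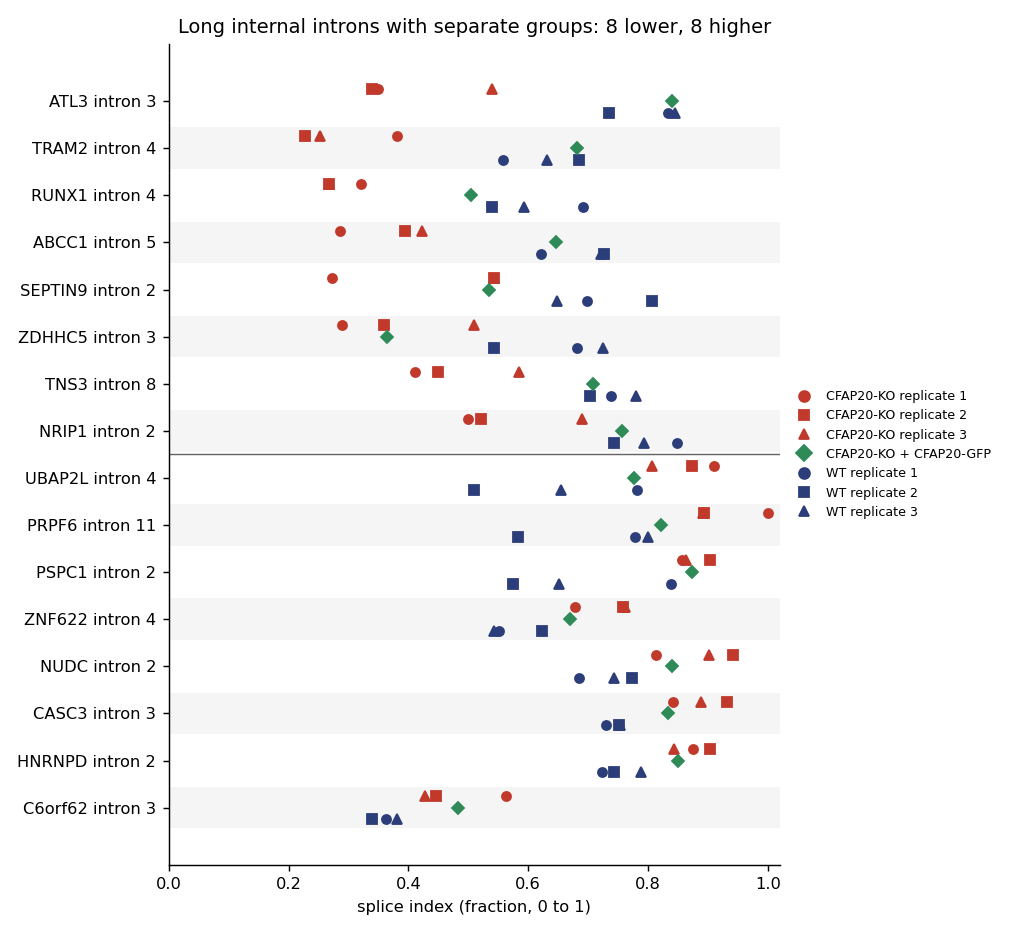
Splice index (horizontal axis, fraction) of the 8 long internal introns with the largest lower and the 8 with the largest higher mean in CFAP20-KO among those whose groups do not overlap; in each row CFAP20-KO libraries are above, the rescue in the middle and WT libraries below. The rescue of ATL3 intron 3 lies at 0.84 among the WT values, and that of PSPC1 intron 2 at 0.874 among the CFAP20-KO values.

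The 8 largest differences in the other direction were smaller. PRPF6 intron 11, in the gene of a protein of the U5 snRNP and tri-snRNP, had 1, 0.893 and 0.892 in CFAP20-KO, 0.822 in the rescue, and 0.778, 0.583 and 0.8 in WT. HNRNPD intron 2, in the gene of an RNA-binding protein that acts on AU-rich elements, had 0.875, 0.904 and 0.844 in CFAP20-KO, 0.85 in the rescue, and 0.723, 0.743 and 0.789 in WT. CASC3 intron 3, in the gene of a subunit of the exon junction complex, had 0.842, 0.932 and 0.889 in CFAP20-KO, 0.833 in the rescue, and 0.731, 0.752 and 0.754 in WT. All 3 introns had every CFAP20-KO value above every WT value. PSPC1 intron 2, in the gene of a paraspeckle protein, had 0.857, 0.904 and 0.864 in CFAP20-KO, 0.874 in the rescue, and 0.838, 0.575 and 0.652 in WT. UBAP2L intron 4, in the gene of an RNA-binding protein of stress granules, had 0.911, 0.874 and 0.806 in CFAP20-KO, 0.777 in the rescue, and 0.781, 0.51 and 0.655 in WT. In both of these introns WT replicate 1 was close to the CFAP20-KO values and WT replicate 2 was the lowest.

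NUDC intron 2, in the gene of a dynein-associated protein, had 0.814, 0.942 and 0.903 in CFAP20-KO, 0.841 in the rescue, and 0.685, 0.773 and 0.743 in WT. ZNF622 intron 4 averaged 0.732 ± 0.048 in CFAP20-KO and 0.572 ± 0.044 in WT, and C6orf62 intron 3 averaged 0.479 ± 0.073 in CFAP20-KO and 0.361 ± 0.021 in WT (SD, n = 3 each). Changes of the 8 introns ranged from 0.118 in C6orf62 to 0.215 in UBAP2L, and none passed limma's test. The rescue was nearer to the CFAP20-KO mean in 14 of the 15 introns with separate, higher values (93.3%), against 73.8% of all introns with such values. The rescue thus lay mostly nearer to whichever group was higher, and its median index over all introns, 0.729, was above that of every CFAP20-KO and WT library.

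Where a gene held several long internal introns, their direction could be compared along the gene. ZMIZ1, which encodes a coactivator of the androgen receptor and other factors, held 5. Intron 2 had 0.672, 0.673 and 0.693 in CFAP20-KO, 0.836 in the rescue, and 0.809, 0.837 and 0.789 in WT. Intron 3 had 0.565, 0.496 and 0.63 in CFAP20-KO, 0.733 in the rescue, and 0.74, 0.76 and 0.674 in WT. Both were lower without overlap, as was intron 5, while the groups overlapped in introns 4 and 6. Mean changes of all 5 were below 0, from −0.161 to −0.076. NAV2, which encodes neuron navigator 2, held 4, with changes of −0.139, −0.126, −0.184 and −0.101 in introns 2, 3, 7 and 8. Introns 2 and 3 were separate, with 0.731, 0.724 and 0.759 for intron 3 in CFAP20-KO, 0.907 in the rescue, and 0.891, 0.834 and 0.867 in WT.

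APP and SAE1 differed from this. APP encodes the amyloid precursor protein, and its introns 5, 9, 16 and 17 had mean indices of 0.888 to 0.972 in CFAP20-KO and of 0.861 to 0.949 in WT. Introns 9 and 16 were higher in CFAP20-KO without overlap. Intron 9 had 0.958, 0.973 and 0.938 in CFAP20-KO, 0.96 in the rescue, and 0.865, 0.884 and 0.833 in WT, and intron 16 had 0.912, 0.945 and 0.942 in CFAP20-KO and 0.907, 0.895 and 0.9 in WT. In SAE1, a subunit of the SUMO-activating enzyme, changes of introns 2, 5, 7 and 8 were 0.028, −0.030, −0.035 and 0.095, and the groups overlapped in each. None of the introns of the 4 genes passed limma's test without covariates.

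**Figure D4:**
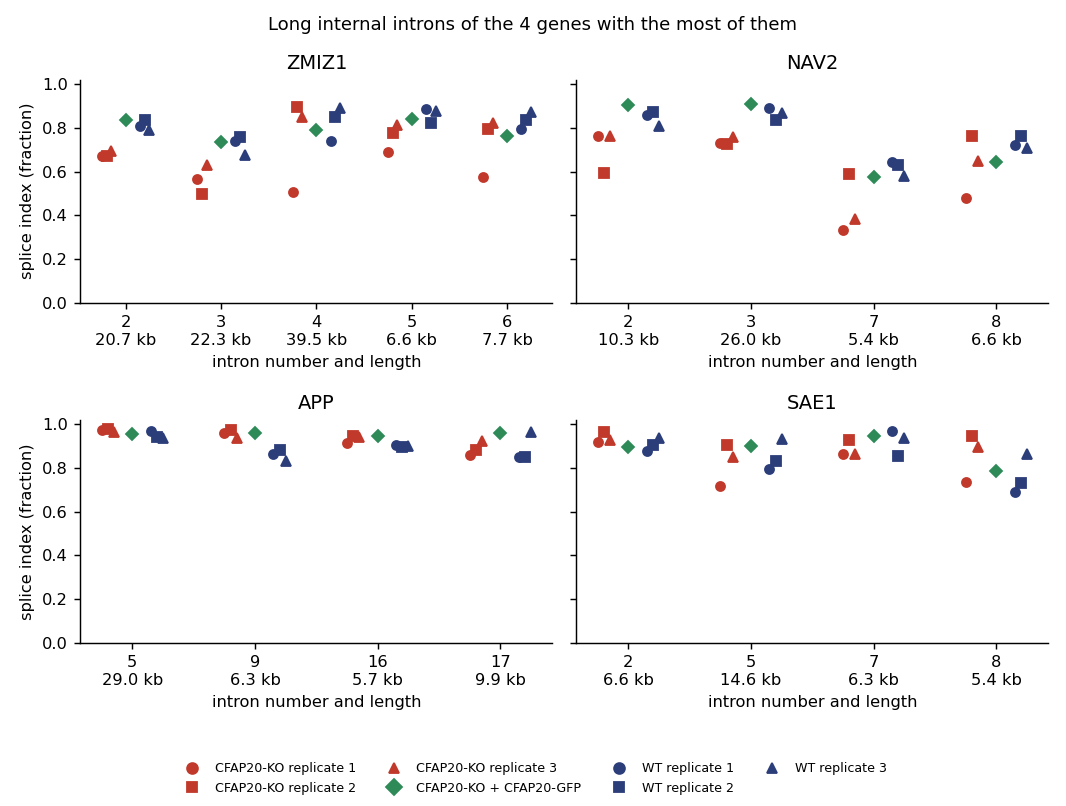
Splice index (vertical axis, fraction) of the long internal introns of ZMIZ1, NAV2, APP and SAE1, in order of intron number with the length in kb below, with CFAP20-KO libraries left, the rescue in the middle and WT libraries right of each position. In introns 2 and 3 of ZMIZ1 and of NAV2 the 3 CFAP20-KO values lie below the 3 WT values, and in APP introns 9 and 16 they lie above.

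Of 11 lists of genes by function, 6 held long internal introns, and 0 of these introns passed limma's test without covariates. As a background, the median change was −0.033 over all 290 long internal introns and 0 over all introns. Over all introns with a rescue value, 3175 had a lower mean in CFAP20-KO and 3158 a higher one. Genes of actin and adhesion held 13 long internal introns in 9 genes, of which 9 had a lower mean in CFAP20-KO, with a median change of −0.028, near the −0.033. Of these, 2 were separate and lower, TNS3 intron 8 and an intron of the myosin gene MYH9 (change −0.057, chosen after its values were seen), and 0 were separate and higher, beside 5.14% lower and 5.92% higher over all introns. CAPZB intron 3, in a subunit of actin capping protein, had 0.457, 0.959 and 0.927 in CFAP20-KO and 0.875, 0.926 and 1 in WT, so that only CFAP20-KO replicate 1 lay below the WT values (change −0.153). VCL intron 8, in the gene of vinculin, had 0.548, 0.93 and 0.839 in CFAP20-KO and 0.7, 0.593 and 0.702 in WT. Genes of chromatin and transcription held 7 in 3 genes, 5 of them with a lower mean, and the median change was −0.078. Of these, RUNX1 intron 4 was separate and lower, and it passed with the block and centring and with the run and centring as given above. JARID2 intron 4, in the gene of a Polycomb cofactor, averaged 0.654 ± 0.109 in CFAP20-KO and 0.788 ± 0.077 in WT.

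RNA processing genes held 4 introns, 1 with a lower mean, with a median change of 0.091. Besides PRPF6, RBM25 intron 4 averaged 0.860 ± 0.075 in CFAP20-KO and 0.738 ± 0.092 in WT, and intron 2 of ENST00000336812 in the helicase gene DHX15 averaged 0.695 ± 0.055 in CFAP20-KO and 0.636 ± 0.154 in WT. Matrix and integrin genes held 4. LOXL2 intron 6, in a lysyl oxidase gene, had 0.357, 0.745 and 0.694 in CFAP20-KO and 0.24, 0.508 and 0.649 in WT, and LOXL2 intron 2 and ITGB5 intron 4 had changes of −0.046 and 0.0063. MAPRE1 intron 2, in the gene of a protein that binds microtubule plus ends, had 0.313, 0.786 and 0.873 in CFAP20-KO and 0.543, 0.818 and 0.841 in WT. AXL intron 6, in a receptor tyrosine kinase gene, had a change of −0.046. In LOXL2 intron 6 and MAPRE1 intron 2 the libraries of the run of replicate 1 were low in both groups.

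At the length limit, EZR intron 7 with 5000 bp had 0.852, 0.981 and 0.972 in CFAP20-KO and 0.854, 0.794 and 0.946 in WT, and PPP4R3A intron 2 with 5016 bp had 0.4, 0.359 and 0.286 in CFAP20-KO and 0.71, 0.462 and 0.409 in WT. Just outside it, TNS3 intron 23 with 4972 bp had 0.345, 0.324 and 0.377 in CFAP20-KO, 0.553 in the rescue, and 0.564, 0.595 and 0.609 in WT. CLTA intron 3 with 4971 bp had 0.592, 0.952 and 0.934 in CFAP20-KO and 0.69, 0.762 and 0.911 in WT.

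Nascent signal inside the introns gave a readout that the choice of introns had not used. The authors' signal per 200-bp bin around replication origins covered 67 of the long internal introns (57 genes), of which 57 had a mean of at least the pseudocount of 6.90 and were tested. The other 10, CASC3 intron 3 among them, were too low. This mean was taken over all 6 libraries. HK1 introns 2 and 7, MYLK intron 2 and PSPC1 intron 2 reached it only through CFAP20-KO (WT means 5.41, 6.03, 6.18 and 5.72). INO80C intron 4 and IFFO1 intron 8 reached it only through WT (CFAP20-KO means 5.73 and 6.54). In bulk cells, fewer cells with a transcript and less RNA per cell cannot be told apart. On the log2(signal + pseudocount) scale, the median of these 57 introns was 4.73, 4.46 and 4.47 in CFAP20-KO replicates 1 to 3 and 4.40, 4.25 and 4.34 in WT replicates 1 to 3. Each CFAP20-KO value lay above each WT value, without centring of the libraries. Over all 630 introns tested the medians were 5.28, 5.01 and 4.95 in CFAP20-KO and 5.45, 4.55 and 5.29 in WT. Relative to the median of its own library, WT replicate 2 was above every CFAP20-KO library, so the groups then overlapped. For internal introns under 1 kb (n = 156) the medians were 5.40, 5.45 and 5.39 in CFAP20-KO and 6.12, 5.01 and 6.08 in WT, with overlap.

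**Figure D5:**
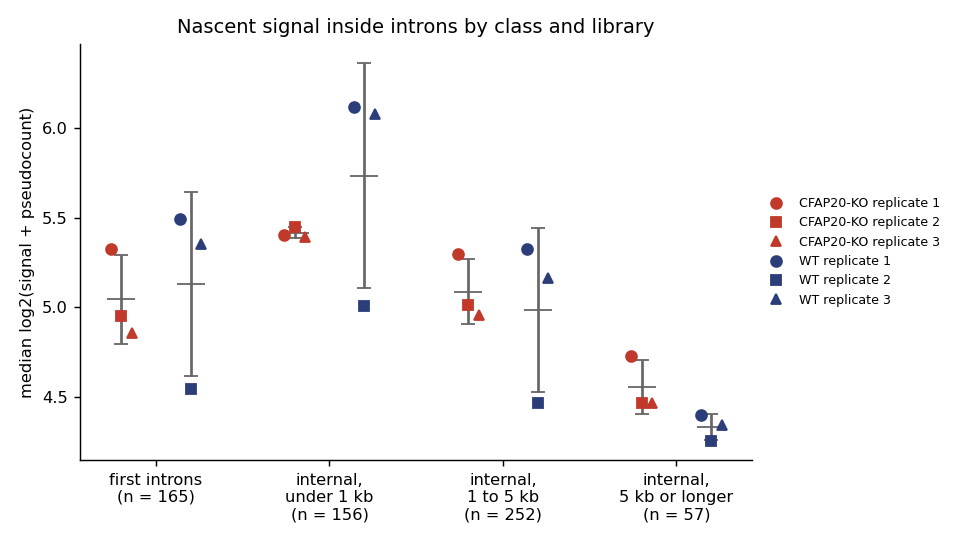
Median log2(signal + pseudocount) of the located introns (vertical axis) by intron class and library, with CFAP20-KO libraries left and WT libraries right, and grey bars for mean and SD of the 3 medians. In introns of 5 kb or longer the CFAP20-KO medians of 4.46 to 4.73 lie above the WT medians of 4.25 to 4.40, and WT replicate 2 is the lowest library in every class.

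The median change in signal was 0.25 on this log2 scale over the 57 introns and −0.03 over all 630 introns tested. Without the limit on the mean it was 0.247 over 67 long internal introns and −0.019 over all 676. Within runs it was 0.37, 0.22 and 0.15 in the 57 introns for CFAP20-KO replicates 1, 2 and 3, and −0.19, −0.33 and −0.35 in all introns. Signal was higher in CFAP20-KO by any amount in 47 of the 57, where the background was 47.3% of all introns. HK1 introns 2 and 7, MYLK intron 2 and PSPC1 intron 2 reached the limit only through CFAP20-KO. They count among these 47 and among the 15 with separate groups given next. INO80C intron 4 and IFFO1 intron 8 reached it only through WT and count among the lower ones. The limit favoured these directions, so these introns give no support to either. The groups did not overlap in 15 of the 57 introns with higher signal, against a background of 6.19%, and in 2 with lower signal, CCNY intron 9 and INO80C intron 4, against 5.08%. With each library centred on its median these counts were 6 (10.5%, against 6.51% of all introns) and 1 (1.75%, against 9.84%). Without WT replicate 2 they were 24 (42.1%, against 8.25%) and 4 (7.02%, against 36.2%). Among the 57 introns, 24 had a higher signal with a lower index and 23 a higher signal with a higher index. The 10 with a lower signal split evenly. The change in index and the change in signal correlated with a Spearman rho of −0.14 over the 57 introns, as a description. A higher signal was thus found at introns with lower and with higher index alike.

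Limma called 0 of the 57 introns higher and 0 lower, with a background of 0% in both directions. Of the 57, 6 had an unadjusted p under 0.05 (25 of 630 introns, 3.97%), among them MYLK intron 2 and INO80C intron 4. Both of these passed the limit on the mean through a single group. With the replicate block, whose pairing of numbers 2 and 3 was not settled, 3 were higher and 1 lower. The background was 0.476% in each direction. These 4 are named because they passed, after their values had been seen. ATL3 intron 3, the intron with the largest difference in index, had a signal of 21.0, 18.1 and 15.2 in CFAP20-KO and of 7.54, 6.38 and 8.68 in WT. Its CFAP20-KO mean was 2.40 times the WT mean, with a log2 change of 0.79 (SE 0.22, limma adjusted p 0.0412 with the block, 0.778 without it). KLF7 intron 3, in a Krüppel-like transcription factor gene, had 29.8, 23.7 and 24.6 in CFAP20-KO and 8.83, 9.31 and 11.4 in WT, with adjusted p 0.0347 with the block. LOXL2 intron 2 had 34.6, 14.7 and 13.3 in CFAP20-KO and 7.75, 5.58 and 8.24 in WT, with adjusted p 0.00987 with the block. In all 3 introns every CFAP20-KO library was above every WT library, and the index of KLF7 intron 3 and LOXL2 intron 2 overlapped between the groups. The signal was not set against the rest of each gene, so a change of the whole gene was not told apart from one of the intron. Other long internal introns of ATL3 and LOXL2 were higher too. The log2 change was 0.52 in ATL3 intron 2 of ENST00000535789, and 0.56 and 0.54 in LOXL2 introns 3 and 6.

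CCNY intron 9, of 12837 bp in the gene of cyclin Y, went the other way. Its signal was 10.4, 8.86 and 9.06 in CFAP20-KO and 64.1, 101 and 24.5 in WT, a log2 change of −1.93 (SE 0.34, limma adjusted p 6.99e-06 with the block, 0.778 without it). The WT mean was 6.71 times the CFAP20-KO mean. Divided into 10 parts along the intron, the highest part in any CFAP20-KO library was 16.4 and the lowest in any WT library was 17.05. The splice index of the same intron was 0.774, 0.822 and 0.81 in CFAP20-KO and 0.812, 0.768 and 0.882 in WT, with overlap. With the run as a covariate, 12 of the 57 introns were higher and 5 lower, against 4.92% and 32.4% of all introns tested. The median of all introns was shifted by −0.29 in that fit. The 5 were CCNY intron 9, MAP2K2 intron 2, IFFO1 intron 8, ZNF460 intron 2 and INO80C intron 4, chosen after their values were seen. IFFO1 and INO80C among the 5, and MYLK intron 2 and PSPC1 intron 2 among the 12, passed the limit on the mean through a single group.

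Along the introns the signal was lower towards the 3′ end in both groups. The log2 ratio of the last to the first of 3 equal parts had a median of −0.11, −0.15 and −0.14 in CFAP20-KO replicates 1 to 3 and of −0.22, −0.22 and −0.19 in WT replicates 1 to 3 over the 57 introns. The ratio was therefore nearer to 0 in each CFAP20-KO library than in each WT library. The median change was 0.091, beside 0.086 over all 89 introns of this length tested, but the 57 are most of those 89. The other 32, all first introns, had a median change of 0.081. With each library centred on its median the change was 0.019 in the 57 introns and 0.014 in all 89. Shares of all introns tested given below likewise include the 57. Limma called 0 higher and 0 lower, with a background of 0% in both directions and 3 of the 57 introns, in ATL3 (intron 2 of ENST00000535789), LOXL2 (intron 2) and SUMO2 (intron 2), at an unadjusted p under 0.05, where all introns tested gave 5 of 89. With the replicate block SUMO2 intron 2 was higher and USP22 intron 2 lower, with a background of 3.37% higher and 1.12% lower. With the run as a covariate 10 of the 57 passed, 6 higher and 4 lower, against 19.1% and 4.49% of all introns tested. For SUMO2, the gene of a small ubiquitin-like modifier, the log2 ratio without a pseudocount was 1.34, 0.60 and 0.47 in CFAP20-KO and 0.64, −0.81 and −0.12 in WT, with overlap. For USP22, a deubiquitinase of the SAGA complex, it was −0.999, −0.0048 and 0.19 in CFAP20-KO and −0.029, 0.50 and 0.51 in WT, with overlap as well.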

How the data were processed

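BrU-seq was analysed in 3 CFAP20-KO, 1 rescue and 3 WT libraries. The submitters' processing notes name R 4.0.5, STAR 2.7.7a, FastQC 0.11.9, SAMtools 1.11, HOMER 4.8.2, hg38 and Trim Galore 0.6.5, and per the labels' protocols reads were paired and 151 bp long. The sources used here do not give the order of steps. The splice index, in the table the authors deposited, is a fraction. Its deposited differences between libraries, treated as a score, equalled the differences of the columns within 3.8e-08. The deposited signal, coverage of the transcribed strand in bins of 200 bp whose scaling by the authors is not stated, was averaged over bins at least 200 bp inside an intron, in 2032 windows reaching 100000 bp to each side of replication origins. 0 per-sample columns of the splice table were left unused. Windows around start sites were not used here.

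CFAP20-KO was compared with WT over all 6537 introns by limma 3.58.1 (R 4.3.3 with statmod 1.5.0, robust empirical Bayes with a trend), without covariates and with Benjamini-Hochberg adjustment at 0.05. Nascent signal was fitted as log2(signal + 6.90), the pseudocount being the 10th percentile of non-zero values, over introns with at least this mean. Such changes understate those of low introns. The members and gene lists were chosen with earlier results of these data known. Introns named are those passing limma's test, the 8 largest rises and falls in mean index among those with separate groups and the same direction within both runs, the 3 longest, those beside the length limit, the 3 highest and lowest in WT, those of the genes with most members (4 genes because of a tie) and up to 3 per list. Some items under this rule are not reported here. The fits were tested on simulated data. To see whether replicate numbers pair the libraries, deviations of each library from its group mean were correlated. Same-numbered pairs correlated at 0.508, 0.207 and 0.214 for the index, at 0.722, 0.334 and 0.219 for the signal and at 0.795, 0.272 and 0.305 for its ratio, all over 0.1, so numbers were taken as pairs. Numbers 2 and 3 were not told apart by this, since CFAP20-KO replicate 3 with WT replicate 2 gave 0.219, 0.417 and 0.394, and CFAP20-KO replicate 2 with WT replicate 3, which share a run, gave 0.250, 0.294 and 0.404. Same-numbered libraries of replicates 1 and 3 also share a run. Deviations within a group of 3 add up to 0, so the correlation of number 1 by itself pushes those among numbers 2 and 3 towards positive values. Passing 0.1 is thus no evidence that numbers 2 and 3 pair.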

Additional observations from a re-analysis of the deposited data

How the results depend on the processing

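The alternatives for counts of introns with separate groups and for the rescue were chosen after seeing the data. For the splice index, 0 introns passed in the fits with the replicate block, the run, centring, a logit scale, a limit of 0.05 to 0.95 on the mean index or averaged CFAP20-KO replicates 2 and 3, and without any 1 library (0 to 0, also among the long internal introns). With the replicate block and centring 34 introns passed, 4 of them long internal ones, and with the run and centring 60 and 6. The median difference of −0.033 ranged from −0.065 within runs to −0.021 at a limit of 10 kb. Leaving out 1 library gave −0.064 to 0.022, the highest without CFAP20-KO replicate 1. For the nascent signal the replicate block gave 6 introns, 4 of them long internal ones, and the run covariate 235 and 17. For the ratio they gave 4 and 2, and 21 and 10. Pseudocount 1, no filter, centring and leaving out 1 library gave 0 (0 to 0). Long internal introns with separate groups numbered 39 lower and 15 higher in the index, 35 and 9 when centred, and without 1 library 46 to 62 and 16 to 52. WT replicate 2 gave the highest lower count, CFAP20-KO replicate 1 the highest higher count, and without WT replicate 3 there were 29 higher. In the signal 15 were higher and 2 lower, 6 and 1 when centred, and without 1 library 17 to 24 and 2 to 4. The median for the rescue minus WT replicate 2 was 0.022, and −0.013 when centred. Depth per intron is unknown and limits each single value. The causes of these shifts were not tested.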
